A study of Homo sapiens with 6 samples.

Results

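Laminins are the cross-shaped matrix proteins of the basement membrane, integrins are the receptors that hold a cell to them, and kindlins and talins are the adaptors that switch integrins on from inside the cell. Their transcripts were measured by RNA-seq in the human pancreatic cancer line PANC-1. There were 3 libraries of cells given a null control virus and 3 of cells given a lentivirus that knocks down SHMT2, the mitochondrial serine hydroxymethyltransferase. Neither the hairpin, the time after infection nor any selection of infected cells is named in the labels, and they do not say whether replicates were separate cultures. The p-values therefore reflect differences among libraries that may be technical replicates. Members were chosen by name: every gene of the deposited table called LAMA, LAMB or LAMC with a number, ITGA or ITGB with 1 or 2 further characters, and NID1, NID2, HSPG2, AGRN, FN1, FERMT1, FERMT2, FERMT3, TLN1, TLN2, ILK and PTK2. This gave 51 of 20036 genes: 12 laminin chains, 5 other matrix glycoproteins, 18 integrin alpha subunits, 8 integrin beta subunits, 7 cytoplasmic partners, and ITGBL1, whose name fits the rule although it encodes a secreted integrin-like protein and no receptor subunit.

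A laminin is built inside the cell as a trimer of an alpha, a beta and a gamma chain, and it is named by the numbers of its chains, so that laminin 511 holds LAMA5, LAMB1 and LAMC1. The alpha chain carries most of the surface that integrins recognise. Each integrin is a pair of an alpha and a beta subunit: ITGA3, ITGA6 and ITGA7 with ITGB1, and ITGA6 with ITGB4, bind laminins, while other pairs bind collagens, fibronectin or other proteins with an RGD motif. The ITGA6 and ITGB4 pair anchors epithelial cells in hemidesmosomes, and laminins 511 and 521 are the common laminins of epithelial basement membranes.

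The deposited counts summed to between 15405884 and 19075734 per library. SHMT2, the targeted gene, stood at 133, 153 and 153 CPM (counts scaled to library size with TMM factors) in control replicates 1, 2 and 3 and at 6.91, 3.42 and 5.23 CPM in knockdown replicates 1, 2 and 3. The libraries of control replicate 1 and of knockdown replicate 2 each lay away from the others of their group, with a chi-square per gene of at least 24.64 against their own group, where the remaining pairs had 2.04 and 2.4. Epithelial markers summed to 1160 to 1510 CPM in controls and 1730 to 2230 CPM in knockdown libraries, mostly from KRT8 and KRT18, while KRT7 and CDH1 lay below 5 CPM and KRT19 was almost absent from controls (7 counts in all). Of these 6 markers KRT8, KRT19 and CDH1 rose, while EPCAM fell from 18.1 ± 0.527 to 6.95 ± 0.863 CPM. The 5 fibroblast markers summed to 2.58 to 2.91 CPM in controls and 1.14 to 1.89 CPM in knockdown libraries, mostly from THY1, which fell from 116 to 75 reads over the groups. Of the others, DCN and COL1A2 had 0 counts in all 6 libraries, and PDGFRA and LUM had at most 9 reads in a group. The 4 platelet markers had 0 counts in all 6 libraries, and the 4 endothelial markers summed to at most 0.414 CPM. The 4 leukocyte markers summed to 3.86 to 4.54 CPM in controls and 2.68 to 3.42 CPM in knockdown libraries, mostly from CORO1A. Mitochondrial genes took 10.4% of the counts in knockdown replicate 2 and 4.72% to 6.86% in the other libraries. The part of these differences in the results was not tested. Coordinates are those of the deposited table, for which the labels name no build, and 41 of the 51 members share a start or end with GENCODE 29 (GRCh38).

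A gene is said to have risen or fallen where edgeR's quasi-likelihood test gave a Benjamini-Hochberg adjusted p below 0.05 over all 12292 tested genes. That background was high, since 51.8% of tested genes passed, 26.7% higher and 25.1% lower. Of the 51 members, 37 had enough counts to be tested, and 15 of these rose, 9 fell and 13 did not pass. The median log2 fold change of the 37 was 0.20, against 0.00 over all tested genes, a background not matched to the members in gene length. Against the median of the 500 tested genes nearest in length, 12 of the 37 moved by at least their standard error and 2 changed sign. A gene that is high in only 1 of the groups passes the filter through that group, so the 37 do not stand for all 51. Changes that passed and reached 2-fold were seen in 13 members, 9 higher and 4 lower, where the whole table had 9.81% and 5.78%. In 28 of the 37 the control and knockdown values did not overlap, against 61.4% of all tested genes. In bulk RNA, fewer cells expressing a gene and less RNA per cell cannot be told apart.

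**Figure D1:**
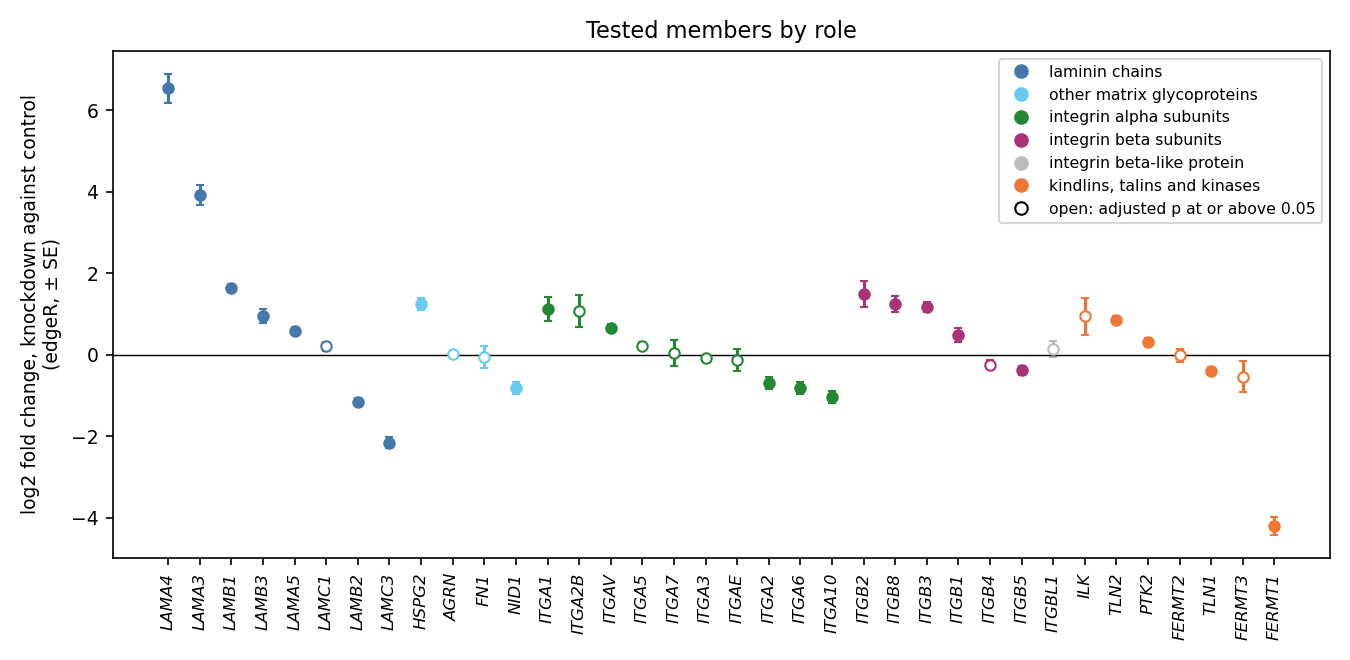
Log2 fold change (knockdown against control, edgeR, with its standard error) of 36 of the 37 tested members, ordered by role; filled points passed an adjusted p of 0.05 and open points did not. LAMA4 (6.53) and LAMA3 (3.91) lie highest and FERMT1 (-4.21) lowest, while the tested integrin subunits lie between -1.04 and 1.49.

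The laminin alpha chains included the members with the highest log2 fold changes. LAMA4 (ENSG00000112769, chromosome 6, 112107931 to 112254939, minus strand), the alpha chain of vessel and mesenchymal laminins 411 and 421, had 0.315, 0 and 0.253 CPM in control replicates 1, 2 and 3 and 18.5, 18.0 and 18.7 CPM in knockdown replicates 1, 2 and 3. The controls held 5, 0 and 4 reads, so its log2 fold change of 6.53 (SE 0.36, edgeR adjusted p = 1.77e-05) rests on very few control reads, while the knockdown libraries held 372, 295 and 362 reads and differed little among themselves. LAMA3 (ENSG00000053747, chromosome 18, 23689453 to 23956222, plus strand), an alpha chain of epithelial laminins, had 0.755, 0.735 and 0.380 CPM in controls and 10.3, 8.92 and 9.11 CPM in knockdown libraries, a log2 fold change of 3.91 (SE 0.24, edgeR adjusted p = 2.55e-05). Both genes were thus below 1 CPM in every control library and above 8 CPM in every knockdown library.

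LAMA5 (ENSG00000130702, chromosome 20, 62307955 to 62367312, minus strand), the alpha chain of the epithelial laminins 511 and 521, was the only alpha chain above 1 CPM in controls. It read 99.1, 95.1 and 89.5 CPM in controls and 132, 147 and 150 CPM in knockdown libraries, with no overlap and a log2 fold change of 0.59 (SE 0.09, edgeR adjusted p = 0.00132). Against the 500 tested genes nearest to it in length, this was 0.36, since the median of those genes lay above 0. LAMA1 and LAMA2 had 8 and 7 reads in the controls and 8 and 7 in the knockdown libraries, too few to test.

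Compared per kilobase of gene length (FPKM, as deposited), LAMA5 made up 98.9% ± 0.234 of the summed alpha chain level in controls and 81.9% ± 1.41 in knockdown libraries (mean ± SD, n = 3 per group). LAMA4 went from 0.236% ± 0.205 to 12.6% ± 0.693 and LAMA3 from 0.637% ± 0.193 to 5.37% ± 0.701. LAMA5 therefore stayed the leading alpha transcript in every library while the shares of LAMA4 and LAMA3 widened.

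The beta chains changed places. LAMB1 (ENSG00000091136, chromosome 7, 107923799 to 108003213, minus strand), the beta chain of laminins 111, 211, 411 and 511, read 123, 111 and 100 CPM in controls and 340, 371 and 336 CPM in knockdown libraries. Its log2 fold change was 1.64 (SE 0.10, edgeR adjusted p = 3e-05). LAMB2 (ENSG00000172037, chromosome 3, 49121114 to 49133118, minus strand), the chain that replaces LAMB1 in laminins 121, 221, 421 and 521, moved the other way, from 139, 141 and 133 CPM in controls to 60.0, 67.2 and 57.3 CPM in knockdown libraries (log2 fold change -1.16, SE 0.09, edgeR adjusted p = 7.96e-05). Neither gene had overlapping groups.

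Within each library, the ratio of LAMB1 to LAMB2 on the FPKM scale was 0.328, 0.292 and 0.278 in controls and 2.09, 2.04 and 2.16 in knockdown libraries. LAMB1 thus passed from below LAMB2 to above it in all 3 knockdown libraries. With the length of the principal transcript in place of the table's gene length, the ratio was 0.804 ± 0.0697 in controls and 5.63 ± 0.167 in knockdown libraries (SD, n = 3), so the order in each group was the same on both lengths. LAMB3, an epithelial beta chain, rose from 4.16 ± 0.532 to 7.98 ± 0.944 CPM (log2 fold change 0.94, SE 0.17, edgeR adjusted p = 0.00256). LAMB4, which lies 20 kb from LAMB1 on the same strand, had 1 read over the controls and 17 over the knockdown libraries. Scaled for library size this was a ratio of 14.2 with a 95% exact interval of 2.23 to 594, which covers counting error only. With no filter on low counts, edgeR called LAMB4 (log2 fold change 3.45, adjusted p = 0.0324), NID2 (1.68, 0.0385) and ITGAM (1.35, 0.0445) among the 14 members not tested here.

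Among the gamma chains LAMC3 fell. LAMC3 (ENSG00000050555, chromosome 9, 131009174 to 131094473, plus strand), a gamma chain of restricted expression, read 25.1, 27.5 and 27.5 CPM in controls and 5.17, 6.54 and 6.21 CPM in knockdown libraries (log2 fold change -2.16, SE 0.13, edgeR adjusted p = 2.39e-05). LAMC1, the gamma chain shared by most laminins, stood at 317 ± 15.4 CPM in controls and 365 ± 35.8 CPM in knockdown libraries. It did not pass (log2 fold change 0.20, SE 0.10, edgeR adjusted p = 0.116, and 0.10 against genes of like length). It passed when libraries were scaled by their totals alone (log2 fold change 0.28, edgeR adjusted p = 0.0277), by limma on log2(FPKM + 1) (0.27, adjusted p = 0.0268) and with both control replicate 1 and knockdown replicate 2 left out (0.16, edgeR adjusted p = 5.17e-05).

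**Figure D2:**
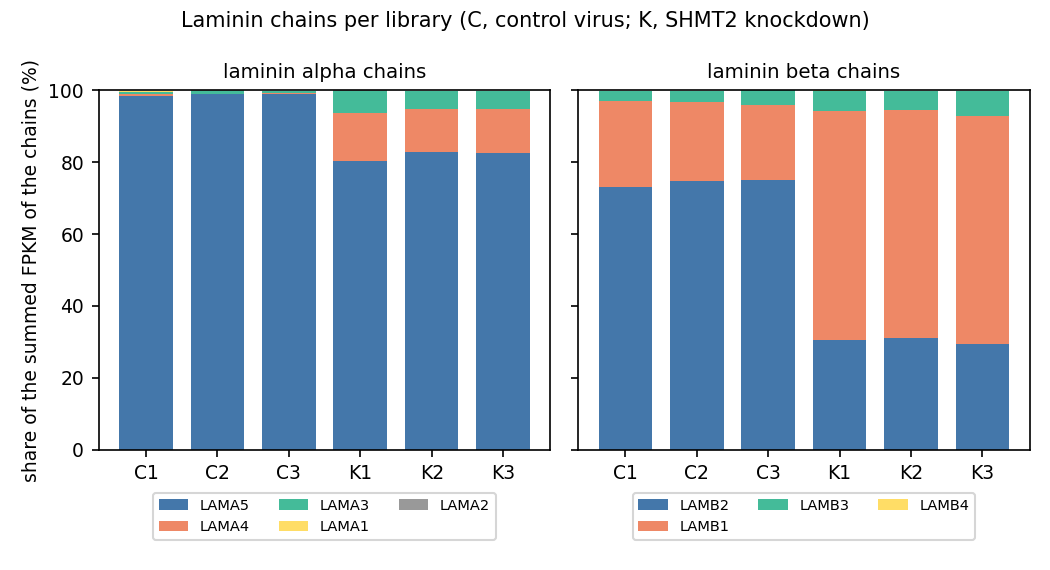
Share of each chain (%, vertical axis) in the summed FPKM of the alpha and of the beta laminin chains in each library (C, control; K, knockdown; 1 bar per library). LAMA5 goes from 98.9% to 81.9%, LAMB1 from 22.3% to 63.6% and LAMB2 from 74.4% to 30.4% (group means).

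Promoter sequences of laminin genes that moved apart are shown, to set the alpha chains that were almost silent in controls (LAMA4, LAMA3) beside the one that was not (LAMA5), and the rising beta chain (LAMB1) beside the falling one (LAMB2). Each run is the 250 bases before the RefSeq start of the gene, from the GRCh38.p14 table, in the gene's own 5′ to 3′ direction. The windows are chr6:112254568-112254817 (minus strand), chr18:23872770-23873019 (plus strand), chr20:62367313-62367562 (minus strand), chr7:108003162-108003411 (minus strand) and chr3:49133051-49133300 (minus strand). Capitals mark matches on either strand to any of 6 motifs. They are the AP-1 motif, spelled TGANTCA, the ATF4 motif, spelled TGATGCAA, the GC box, spelled GGGCGG, the E-box, spelled CACCTG, the TATA box, spelled TATAAA, and the paired motif of interferon response elements. Other spellings of the E-box were not searched. RefSeq gives a single start per gene here, and LAMA3 is known to have more than one promoter. The LAMA3 window lies well inside the gene as the deposited table places it, at an internal start, and the LAMA4 window also lies inside its gene, near the start. The LAMB1 and LAMB2 windows lie partly inside their genes, which in that table start at 108003213 and 49133118.
LAMA4: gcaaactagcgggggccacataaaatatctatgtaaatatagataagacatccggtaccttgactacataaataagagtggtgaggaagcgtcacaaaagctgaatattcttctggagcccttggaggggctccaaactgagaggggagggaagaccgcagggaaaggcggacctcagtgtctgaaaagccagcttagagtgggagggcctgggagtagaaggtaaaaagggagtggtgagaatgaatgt
LAMA3: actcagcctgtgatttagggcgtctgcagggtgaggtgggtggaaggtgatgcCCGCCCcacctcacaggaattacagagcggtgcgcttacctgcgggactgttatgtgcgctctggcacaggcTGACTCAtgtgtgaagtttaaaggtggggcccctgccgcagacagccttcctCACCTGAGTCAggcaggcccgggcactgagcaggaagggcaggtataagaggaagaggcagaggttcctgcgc
LAMA5: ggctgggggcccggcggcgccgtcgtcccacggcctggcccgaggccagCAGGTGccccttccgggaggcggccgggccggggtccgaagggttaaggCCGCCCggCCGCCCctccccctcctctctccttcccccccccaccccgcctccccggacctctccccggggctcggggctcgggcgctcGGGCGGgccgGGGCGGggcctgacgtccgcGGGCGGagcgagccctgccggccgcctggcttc
LAMB1: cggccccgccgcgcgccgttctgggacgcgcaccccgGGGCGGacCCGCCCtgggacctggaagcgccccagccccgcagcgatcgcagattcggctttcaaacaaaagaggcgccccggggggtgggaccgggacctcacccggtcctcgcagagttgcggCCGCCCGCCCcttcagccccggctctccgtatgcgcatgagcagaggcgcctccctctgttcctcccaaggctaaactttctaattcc
LAMB2: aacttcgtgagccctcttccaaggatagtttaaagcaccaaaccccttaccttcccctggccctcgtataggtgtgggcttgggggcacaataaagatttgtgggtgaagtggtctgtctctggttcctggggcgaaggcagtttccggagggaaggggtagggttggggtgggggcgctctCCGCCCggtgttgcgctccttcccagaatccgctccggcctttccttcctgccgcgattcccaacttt

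None of these 6 motifs matched in the LAMA4 window, which was 48.4% G or C with 5 CpG dinucleotides, against a median of 58.0% G or C over 27305 such windows. LAMA3 (60.4%, 9 CpG) held a GC box and AP-1 matches at positions -125 and -69 from the RefSeq start, the latter overlapping a CACCTG match. AP-1 matches occurred in 6.60% of all windows, and LAMA3 was the only one of the 36 members with an entry in the promoter table to hold any. The LAMA5 window was 82.8% G or C with 32 CpG dinucleotides and held 5 GC boxes, and LAMB1 (70.4%, 28 CpG) held 4, where 42.3% of all windows held at least 1. LAMB2 (58.4%, 12 CpG) held 1. A match describes letters in the window and does not show that a factor binds there.

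For each of 10 known trimers, the level of its scarcest chain in a library sets the most that could be matched at the transcript level. All 10 hold LAMC1. No trimer with another gamma chain was matched, so the fall of LAMC3 does not enter these values. Where trimers share chains, these upper limits cannot all be reached at once. Each trimer was taken on its own, so LAMA5 is used in full for both 511 and 521. Laminins 311 and 321 had their lowest chain, LAMA3, at 0.0510, 0.0493 and 0.0253 FPKM in controls and at 0.749, 0.602 and 0.663 FPKM in knockdown libraries. For laminins 411 and 421, with LAMA4 lowest, the value was 0.0154 ± 0.0136 FPKM in controls and 1.58 ± 0.0979 FPKM in knockdown libraries. Laminins 511 and 521 had the highest values in both groups. That of 511 was 5.83 ± 0.633 and 10.3 ± 0.684 FPKM, with LAMB1 the lowest chain in controls and LAMA5 in knockdown libraries, and that of 521 was 6.43 ± 0.366 and 9.20 ± 0.382 FPKM, with LAMA5 lowest in controls and LAMB2 in knockdown libraries. With principal transcript lengths LAMA5 was the lowest chain of 511 in both groups (8.04 ± 0.458 and 12.8 ± 0.855, SD, n = 3).

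Of the 5 other matrix glycoproteins, 4 were tested, 1 rose and 1 fell, where 26.7% of all tested genes rose and 25.1% fell. HSPG2 (ENSG00000142798, chromosome 1, 21822244 to 21937310, minus strand) encodes perlecan, a heparan sulfate proteoglycan. It read 59.0, 53.7 and 52.8 CPM in controls and 107, 161 and 126 CPM in knockdown libraries. Its log2 fold change was 1.25 (SE 0.15, edgeR adjusted p = 0.000510), and 1.03 against genes of like length. For HSPG2, 11.7% of the exon bases overlap a gene on the opposite strand. NID1, which links laminin to collagen IV, fell from 259, 258 and 245 CPM to 124, 183 and 126 CPM (log2 fold change -0.82, SE 0.15, edgeR adjusted p = 0.00351). For both genes knockdown replicate 2 was the highest of its group, and without it the log2 fold change was 1.07 for HSPG2 and -1.03 for NID1. AGRN, the proteoglycan agrin, was level at 114 ± 5.55 and 114 ± 6.83 CPM (edgeR adjusted p = 0.942). FN1, the fibronectin gene, was low in both groups, at 1.82 ± 0.304 and 1.73 ± 0.475 CPM (edgeR adjusted p = 0.842). NID2, also a nidogen, was too low to test and had 7 and 28 reads, a scaled ratio of 3.34 with a 95% exact interval of 1.43 to 9.07 for counting error alone, and 30% of its exon bases overlap a gene on the opposite strand.

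**Figure D3:**
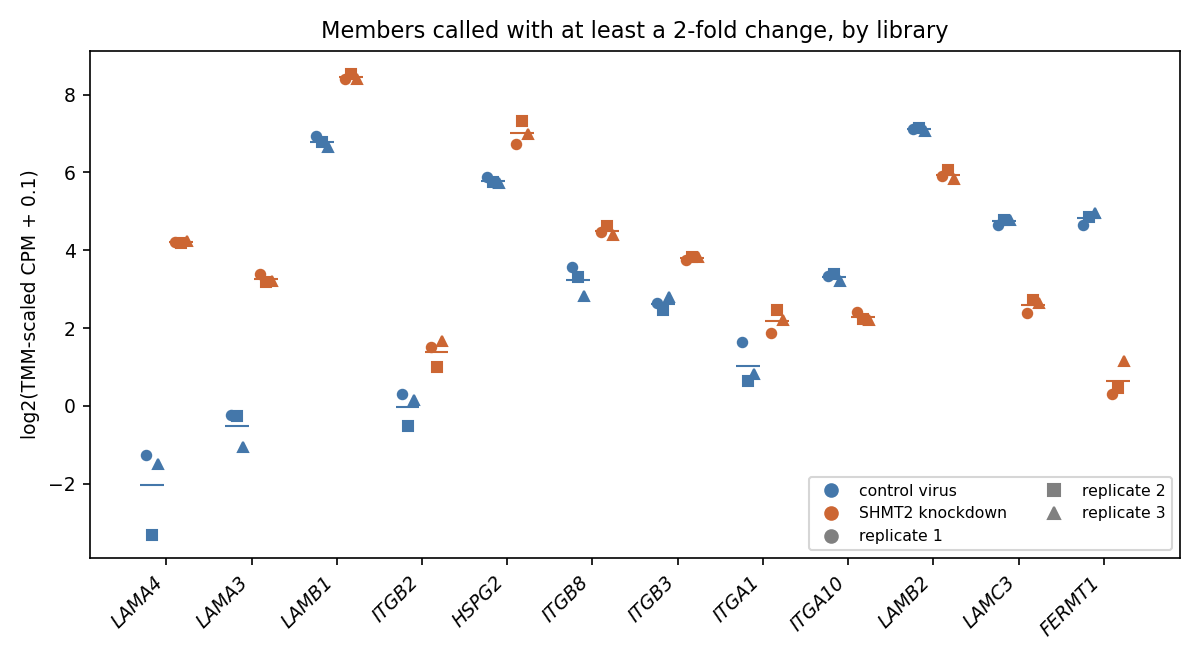
Level of 12 of the 13 members with a called change of at least 2-fold, as log2(TMM-scaled CPM + 0.1) on the vertical axis; each point is a library, symbols mark the replicate number and bars the group mean of the logged values. Control and knockdown points do not overlap for any of the 12, which is likely beforehand in genes selected by call and fold change. Over all tested genes 61.4% do not overlap. LAMA4 lies lowest in the controls, with 0 reads in control replicate 2.

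Of the 18 integrin alpha subunits, 10 were tested, 2 rose and 3 fell, with a median log2 fold change of -0.03. Over all tested genes 51.8% passed, 26.7% higher and 25.1% lower. In controls the order on the FPKM scale was ITGA6 (191), ITGA2 (99.3), ITGA3 (85.3), ITGA5 (30.4) and ITGAV (20.5), with every other alpha subunit at or below 3.05. ITGA2 and ITGA3 overlapped there, reading 123 and 81.4 FPKM in control replicate 1, 90 and 89.6 FPKM in control replicate 2 and 85.3 and 85.1 FPKM in control replicate 3. By principal transcript lengths ITGA3 lay above ITGA2 in controls, at 28.1% ± 3.49 of the alpha subunit level against 16.1% ± 1.78 (SD, n = 3). In knockdown libraries the order was ITGA6 (114), ITGA3 (84.7), ITGA2 (64.7), ITGA5 (37.4) and ITGAV (34.2). With principal transcript lengths ITGA3 led in knockdown libraries (31.8% ± 1.45 of the alpha subunit level, with ITGA6 at 25.5% ± 2.25), so the leading alpha subunit in that group depends on the length used. The order of ITGA5 and ITGAV depends on it too, with a ratio of ITGAV to ITGA5 of 0.680 ± 0.118 in controls by the table length and 1.13 ± 0.195 by the principal transcript (SD, n = 3).

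ITGA6, the laminin receptor subunit that pairs with ITGB1 and ITGB4, fell from 1560, 1180 and 1200 CPM to 696, 849 and 690 CPM (log2 fold change -0.82, SE 0.14, edgeR adjusted p = 0.00242). ITGA2, which binds collagen, fell from 990, 731 and 697 CPM to 483, 549 and 462 CPM (log2 fold change -0.70, SE 0.15, edgeR adjusted p = 0.00598). The highest value of each came from control replicate 1, and without that library the log2 fold changes were -0.68 for ITGA6 and -0.53 for ITGA2, both still called. ITGA3, the other abundant laminin receptor subunit, stood at 861 ± 43.8 and 806 ± 12.9 CPM and did not pass (log2 fold change -0.09, edgeR adjusted p = 0.357). Against genes of like length ITGA3 was -0.24. With both control replicate 1 and knockdown replicate 2 left out it passed at -0.11 (edgeR adjusted p = 0.00113). The libraries kept in that fit were chosen from these data and differed little, so its adjusted p reads low.

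ITGAV, the shared alpha subunit of RGD-binding integrins, rose from 462, 383 and 380 CPM to 662, 616 and 649 CPM (log2 fold change 0.65, SE 0.10, edgeR adjusted p = 0.00153). It was 0.38 against the 500 genes nearest in length. ITGA5, the fibronectin receptor subunit, stood at 231 ± 12.6 and 268 ± 8.51 CPM, with no overlap of groups and no call (edgeR adjusted p = 0.0555). However, DESeq2 (0.0403), limma-voom (0.0475), library totals alone (edgeR adjusted p = 0.0170) and limma on log2(FPKM + 1) (0.0158) gave an adjusted p below 0.05. So did the fit that left out both control replicate 1 and knockdown replicate 2 (edgeR adjusted p = 0.000186), whose p-values read low because its libraries were chosen from these data. ITGA10, a collagen receptor subunit, fell from 10.1, 10.4 and 9.18 CPM to 5.27, 4.64 and 4.51 CPM (log2 fold change -1.04, SE 0.14, edgeR adjusted p = 0.00072). Its chromosome 1 locus spans 145891208 to 145910111 on the minus strand.

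ITGA1, another collagen receptor subunit, lies 30 kb upstream of ITGA2 on chromosome 5 (52787916 to 52959209, plus strand) and moved against it. It read 3.02, 1.47 and 1.65 CPM in controls and 3.58, 5.38 and 4.51 CPM in knockdown libraries, a log2 fold change of 1.12 (SE 0.30, edgeR adjusted p = 0.0158). This call was lost without control replicate 2 (edgeR adjusted p = 0.0596) or control replicate 3 (0.0603), and the gap between control replicate 1 and knockdown replicate 1 was small. ITGA2B, the platelet alpha subunit, stood at 0.454 ± 0.188 and 0.962 ± 0.274 CPM with no call (edgeR adjusted p = 0.0553). It passed without control replicate 2 (edgeR adjusted p = 0.0473), without knockdown replicate 1 (0.0389) and with library totals alone (0.0417). ITGAE and ITGA7 did not pass (edgeR adjusted p = 0.721 and 0.953). The other 8 alpha subunits were not tested. They are ITGA4, ITGA8, ITGA9, ITGA11 and the leukocyte subunits ITGAL, ITGAM, ITGAX and ITGAD, and ITGAM had the most reads, 16 over the controls and 49 over the knockdown libraries.

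Of the 8 integrin beta subunits, 6 were tested, 4 rose and 1 fell, with a median log2 fold change of 0.82. That is a small set, and 26.7% of all tested genes rose and 25.1% fell. ITGB1, the partner of most alpha subunits, was the most abundant by length in all libraries. It read 1910, 1260 and 1280 CPM in controls and 2040, 2190 and 1970 CPM in knockdown libraries, and control replicate 1 lay closer to the knockdown libraries than to its own group. The log2 fold change was 0.48 (SE 0.17, edgeR adjusted p = 0.0444), 0.24 against genes of like length and 0.69 without control replicate 1. The call was lost on leaving out any other library, control replicate 2 (edgeR adjusted p = 0.156), control replicate 3 (0.150) or knockdown replicate 1 (0.0992), 2 (0.0972) or 3 (0.0782). ITGB5 fell from 390, 448 and 446 CPM to 344, 293 and 351 CPM (log2 fold change -0.38, SE 0.11, edgeR adjusted p = 0.0181). That call was lost without control replicate 2 (edgeR adjusted p = 0.0744) or 3 (0.0702), with library totals alone (0.0782) and by limma on log2(FPKM + 1) (0.0815).

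Among the less abundant partners of ITGAV, ITGB3 and ITGB8 rose. ITGB8 (chromosome 7, 20330702 to 20415754, plus strand), which takes part in the activation of latent TGF-beta, read 11.7, 9.89 and 6.96 CPM in controls and 22.1, 24.5 and 21.0 CPM in knockdown libraries (log2 fold change 1.24, SE 0.19, edgeR adjusted p = 0.00127). Against genes of like length ITGB8 was 1.02. ITGB3 (chromosome 17, 47253827 to 47313743, plus strand), the beta subunit of the vitronectin receptor, read 6.11, 5.41 and 6.83 CPM in controls and 13.3, 14.0 and 14.1 CPM in knockdown libraries (log2 fold change 1.17, SE 0.13, edgeR adjusted p = 0.00036). Its level is uncertain, since 51.6% of its exon bases are shared with an overlapping gene model on the same strand. ITGB6, the epithelial partner of ITGAV, had 4 reads over the controls and 7 over the knockdown libraries.

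ITGB4, the hemidesmosome subunit that pairs only with ITGA6, stood at 44 ± 1.94 CPM in controls and 37.1 ± 4.16 CPM in knockdown libraries and did not pass (log2 fold change -0.25, SE 0.11, edgeR adjusted p = 0.0874). It passed without knockdown replicate 2 (log2 fold change -0.35, edgeR adjusted p = 0.0118) and with both control replicate 1 and knockdown replicate 2 left out (-0.31, edgeR adjusted p = 9.6e-05). Both fits leave out libraries chosen from these data for lying away from their group, so their p-values read low. ITGB2 (chromosome 21, 44885953 to 44931989, minus strand), the beta subunit of leukocyte integrins, rose from 1.13, 0.601 and 1.01 CPM to 2.78, 1.89 and 3.06 CPM (log2 fold change 1.49, SE 0.31, edgeR adjusted p = 0.00507), while the summed leukocyte markers were lower in all knockdown libraries. Of those 4 markers, LAPTM5 fell from 58 to 18 reads over the groups (log2 fold change -1.91, edgeR adjusted p = 0.0442), CORO1A had 132 and 116 reads with no call, CD53 had 10 and 26 and PTPRC had 1 and 4. ITGB7 had 2 and 14 reads over the groups, a scaled ratio of 5.85 with a 95% exact interval of 1.34 to 53.1 for counting error alone, and 42.1% of its exon bases overlap a gene on the opposite strand. ITGBL1 stood at 14.0 ± 0.707 and 15.4 ± 4.35 CPM with no call (edgeR adjusted p = 0.586), and 70.5% of its exon bases overlap genes on the opposite strand.

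Matching subunits into the 24 known pairs, by the lower subunit in each library, showed 8 pairs with a mean of at least 1 FPKM in controls and 9 in knockdown libraries. Each pair was matched on its own, so ITGB1 (99.3 FPKM in controls) is used in full for every alpha subunit. The pair values are therefore upper limits that cannot all be reached at once. By principal transcript lengths the counts were 10 in controls and 9 in knockdown libraries, so the direction of this count depends on the length used. Among laminin receptors, the ITGA3 and ITGB1 pair was at 83.5 ± 1.93 FPKM in controls and 84.7 ± 4.95 FPKM in knockdown libraries, with overlapping groups. The ITGA6 and ITGB1 pair read 128, 84.1 and 85.2 FPKM in controls, where ITGB1 was the lower subunit, and 110, 124 and 109 FPKM in knockdown libraries, where ITGA6 was. With principal transcript lengths ITGA6 was the lower subunit throughout and the pair went from 227 ± 38.7 to 136 ± 10.1, so the direction of this pair depends on the length used. The ITGA6 and ITGB4 pair, with ITGB4 always the lower, was at 6.33 ± 0.316 and 5.63 ± 0.375 FPKM, with overlapping groups.

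The ITGAV pairs with ITGB3 and ITGB8 went from 0.870 ± 0.0982 to 2.08 ± 0.0924 FPKM and from 0.611 ± 0.157 to 1.53 ± 0.0615 FPKM, both set by the beta subunit. The ITGAV and ITGB1 pair, set by ITGAV, went from 20.5 ± 2.46 to 34.2 ± 2.68 FPKM, and the ITGA5 and ITGB1 pair from 30.4 ± 1.5 to 37.4 ± 1.06 FPKM. The ITGAV and ITGB5 pair, also set by ITGAV, had the same values as that of ITGAV and ITGB1. By principal transcript lengths the ITGAV and ITGB5 pair went from 56.5 ± 6.77 to 77.7 ± 10.7, with ITGB5 the lower subunit in knockdown libraries. Of the collagen receptors, the ITGA2 and ITGB1 pair went from 97.3 ± 21.9 to 64.7 ± 3.13 FPKM and the ITGA10 and ITGB1 pair from 1.54 ± 0.105 to 0.793 ± 0.0861 FPKM (SD, n = 3 for each). These are transcript levels, and no protein or surface level was measured.

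**Figure D4:**
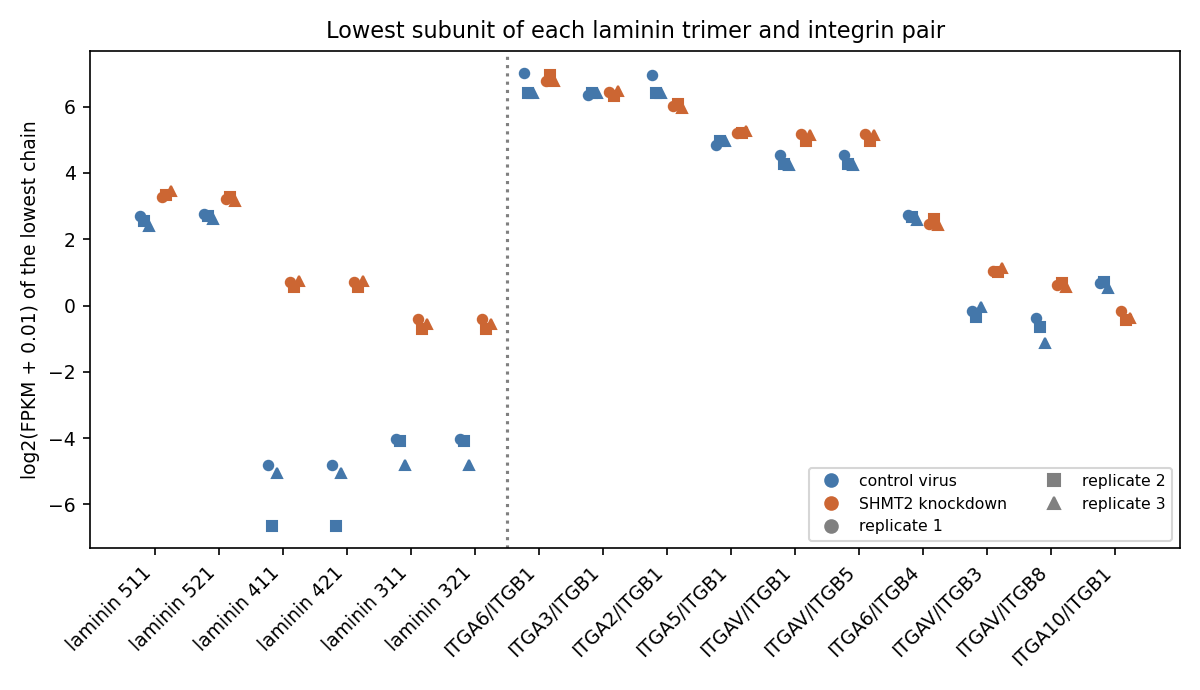
Level of the lowest chain of 6 laminin trimers and 10 integrin pairs, as log2(FPKM + 0.01) on the vertical axis, in each library (left of the dotted line, trimers; right, pairs; symbols mark the replicate number). Laminins 411, 421, 311 and 321 lie far lower in controls than in knockdown libraries because LAMA4 or LAMA3 sets their value. On this scale the pairs of ITGA3 and ITGA6 with ITGB1 overlap between the groups. By principal transcript lengths, not plotted, the ITGA6 and ITGB1 pair does not overlap and is lower in knockdown libraries. Each trimer or pair was matched on its own, so shared subunits are used in full more than once. Trimers and pairs below 0.5 FPKM in every library are left out.

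Of the 7 cytoplasmic partners, all tested, 2 rose and 2 fell, with a median log2 fold change of -0.02, where 51.8% of all tested genes passed. Inside the cell, kindlins and talins bind the tails of beta subunits and turn the receptor to its active form. FERMT1 (ENSG00000101311, chromosome 20, 6074845 to 6123214, minus strand), kindlin-1, the epithelial kindlin, read 25.1, 28.9 and 30.8 CPM in controls and 1.14, 1.28 and 2.12 CPM in knockdown libraries. Its log2 fold change was -4.21 (SE 0.22, edgeR adjusted p = 1.4e-05). FERMT2, kindlin-2, the widely expressed form, stood at 97.5, 71.3 and 74.6 CPM in controls and 76.3, 92.1 and 72.4 CPM in knockdown libraries, with overlapping groups and no call (log2 fold change -0.02, SE 0.15, edgeR adjusted p = 0.938). FERMT3, the blood cell kindlin, was near 1 CPM in both groups (edgeR adjusted p = 0.264).

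Per length, FERMT1 was 0.297 ± 0.0725 of FERMT2 in controls and 0.0160 ± 0.00711 of it in knockdown libraries (SD, n = 3). FERMT2 was the leading kindlin transcript in all 6 libraries. TLN1, the main talin, fell from 583 ± 21.0 to 445 ± 21.9 CPM (log2 fold change -0.39, SE 0.08, edgeR adjusted p = 0.00578, and -0.54 against genes of like length). TLN2 rose from 11.8, 11.6 and 12.1 CPM to 21.3, 22.1 and 20.5 CPM (log2 fold change 0.84, SE 0.10, edgeR adjusted p = 0.000438). This was 0.58 against genes of like length, and per length TLN2 was only 0.0291 ± 0.00102 of TLN1 in knockdown libraries.

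PTK2, the focal adhesion kinase, read 141, 120 and 118 CPM in controls and 152, 161 and 158 CPM in knockdown libraries (log2 fold change 0.31, SE 0.10, edgeR adjusted p = 0.0277). Its value was 0.09 against genes of like length, and the call was lost without control replicate 2 (edgeR adjusted p = 0.120), control replicate 3 (0.118), knockdown replicate 1 (0.0658) or knockdown replicate 3 (0.0828). ILK, the integrin-linked kinase scaffold, had only 13 to 60 reads per library and no call (edgeR adjusted p = 0.115). Its level is uncertain, because 78.5% of its exon bases overlap genes on the opposite strand, TAF10 among them, and no label states the strand setting of the counting.

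Genes around these members were read from 4 lists. Of 16 tested matrix ligands and basement membrane genes outside the members, 7 rose and 3 fell, with a median log2 fold change of 0.22. COL4A1 and COL4A2, which form the main collagen IV network, rose from 0.556 ± 0.0818 and 0.730 ± 0.139 CPM to 18.0 ± 1.34 and 24.0 ± 3.20 CPM. NTN4, a netrin that binds laminin gamma chains, rose from 31.4 ± 1.33 to 147 ± 6.68 CPM, and TNC, tenascin-C, from 8.08 ± 0.426 to 16.9 ± 0.919 CPM. The collagen IV chains COL4A5 and COL4A6 and the basement membrane collagen COL18A1 were the genes of that list that fell, named here after their values were seen.

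Of 12 tested non-integrin laminin receptors and hemidesmosome genes, 1 rose and 3 fell (median -0.16). RPSA, a ribosomal protein also known as a laminin receptor, fell from 861 ± 135 to 451 ± 100 CPM, a level made uncertain by its many near-identical pseudogenes. Also lower were the proteoglycan SDC1, from 201 ± 19.0 to 110 ± 20.2 CPM, and PLEC, the plectin that ties ITGB4 to keratins, from 671 ± 29.6 to 494 ± 39.7 CPM. UTRN, which links the dystroglycan complex to actin, rose from 120 ± 44.2 to 214 ± 22.9 CPM. DAG1, BCAM, CD151, DST and COL17A1 were among the 8 that did not pass.

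Of 29 tested focal adhesion adaptors and kinases, 5 rose and 10 fell (median -0.15), and 1 of these changes reached 2-fold. That was TGFB1I1, a paxillin relative, at 21.2 ± 1.68 and 7.08 ± 0.0632 CPM. The actin-binding proteins ACTN1 and FLNA fell from 570 ± 4.35 to 316 ± 47.5 CPM and from 1650 ± 46.9 to 1080 ± 68.0 CPM, and VASP fell from 187 ± 21.6 to 96.3 ± 9.56 CPM. VCL, TNS3, LIMS1, DOCK1 and KANK1 were those that rose, named here after their values were seen. Of 16 tested regulators of integrin activity and traffic, 5 rose and 5 fell (median -0.17). APBB1IP, an adaptor that brings talin to the membrane, had 5 reads over the controls and 48 over the knockdown libraries, CD47, a partner of ITGB3, rose from 37.7 ± 1 to 72.6 ± 8.19 CPM, the endocytic adaptor DAB2 fell from 9.43 ± 1.53 to 3.28 ± 1.04 CPM and the tetraspanin CD9 fell from 162 ± 10.7 to 116 ± 4.38 CPM (SD, n = 3 for each). The shares that passed, 10 of 16, 4 of 12, 15 of 29 and 10 of 16 in the order of the lists given, stand beside 51.8% over all tested genes.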

How the data were processed

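The authors deposited a single table with read counts and FPKM per gene and library, gene names, coordinates and lengths. TRIzol RNA went into NEBNext Ultra II RNA libraries, per the labels' protocols, which name no aligner, counter, build, annotation or strand setting. The deposited counts were fitted in edgeR 4.0.16 (R 4.3.3) with filterByExpr, TMM factors and quasi-likelihood tests over the 6 libraries, knockdown against control, with Benjamini-Hochberg adjustment over 12292 genes. The deposited FPKM values, which depend on the table's length column, were used for levels between genes, for trimers and pairs, and in 1 alternative test, limma on log2(FPKM + 1). For 14 of 51 members that length is over 2 times the principal transcript of GENCODE 29, and this second length was added after seeing the data. Members with a called change of at least 2-fold and a mean of at least 1 CPM were given per library, the others by role, pair or trimer. From each list of other genes, up to 4 called genes of smallest p were given with values. The members and lists were chosen with earlier results of these data known. Alternatives used DESeq2 1.42.0, limma 3.58.1, other scalings, no filter, a replicate block and left-out libraries. Tested on simulated data of 12175 genes for this comparison, edgeR recovered 33.3% of 1.5-fold, 75% of 2-fold and 100% of 4-fold changes, and 12 of 164 calls were false. Few genes were changed in the simulation (48, 56, 50 and 44 by 1.5-, 2-, 4- and 8-fold), where 51.8% passed in the data. These rates depend on that share and need not hold for the real comparison. The biological coefficient of variation was 14.2%. For 1 member the values are not reported here.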

Additional observations from a re-analysis of the deposited data

How the results depend on the processing

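Of the 24 members called, 20 were called in each of 14 refits, the exceptions being ITGB1, ITGB5, ITGA1 and PTK2. Members higher numbered 12 to 15 and members lower 8 to 10 on leaving out each library in turn, and over all genes 2440 to 3504 were higher and 2308 to 3465 lower. At an adjusted p below 0.01, 2143 genes were higher and 2023 lower, against 3284 and 3088 at 0.05. Library totals alone gave 3766 higher and 2491 lower, with 18 and 8 members, and limma on log2(FPKM + 1) gave 3727 and 2536. With both control replicate 1 and knockdown replicate 2 left out, 4576 genes were higher and 4559 lower, with 17 and 11 members. The libraries left out there were chosen from these data, and those kept differed little (chi-square per gene 2.04 and 2.4). The adjusted p-values of that fit are therefore not comparable with those of the others. Same-numbered deviations correlated at -0.39, -0.37 and 0.41 for replicates 1, 2 and 3. This does not settle whether replicate numbers pair the libraries, because control replicate 1 and knockdown replicate 2 lay away from their groups and weigh on all of these values. With the replicate block 14 members were higher and 8 lower (2834 and 2610 genes), and PTK2 (0.32, adjusted p = 0.0726) and ITGB5 (-0.38, adjusted p = 0.0502, both edgeR) lost their calls. The changes of sign were all in members with no call. On leaving out each library in turn, log2 fold changes ran from -0.14 to 0.13 for FERMT2 (-0.02 with all 6 libraries), from -0.31 to 0.11 for FN1 (-0.07), from -0.27 to 0.24 for ITGA7 (0.03), from -0.04 to 0.04 for AGRN (0.01), from -0.34 to 0.09 for ITGAE (-0.13) and from -0.12 to 0.28 for ITGBL1 (0.14). Library totals alone gave 0.06 for FERMT2 and 0.01 for FN1, and limma on FPKM gave 0.07 and 0.00. With both control replicate 1 and knockdown replicate 2 left out, FERMT2 was 0.03, FN1 0.10, ITGA7 -0.30 and ITGBL1 -0.09. Against genes of like length ITGA7 was -0.10 and AGRN -0.15. The cause of these changes was not tested. Depth limits LAMA3 and LAMA4 in controls and the 14 untested members, which had 1 to 65 reads in all.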
